A study of Mus musculus with 16 samples.

Results

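The 10 genes described here carry out bile acid synthesis, conjugation and transport in hepatocytes. They are a list of symbols (Cyp7a1, Cyp8b1, Cyp27a1, Cyp7b1, Akr1d1, Baat, Slc27a5, Slc10a1, Abcb11 and Slco1b2), 10 of the 36118 gene IDs measured, and all 10 were matched to an Ensembl ID. Bulk RNA-seq was made from colorectum and liver of male mice, 8 weeks old, of the Apc Min/+ strain, whose Min allele of Apc gives intestinal adenomas. All mice, controls included, carried that allele and were given N-glycolylneuraminic acid, the sialic acid Neu5Gc, in drinking water over 14 days: 0.0127 mg/ml in the low group, which is the control, and 0.2535 mg/ml in the high group. There was no group without Neu5Gc. By the sample labels the liver has 3 libraries in each group and the colorectum 4 in the low and 6 in the high group, while the design text of the series gives 6 control and 4 treated mice, so that groups and directions follow the sample labels. The labels do not say whether a library is 1 mouse or which liver and colorectum libraries share a mouse, so p-values measure the spread between these libraries.

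Bile acids are made from cholesterol in the liver. The classical pathway starts with Cyp7a1, the rate-limiting cholesterol hydroxylase, and passes through Cyp8b1, whose activity sets the share of cholic acid. The alternative pathway uses Cyp27a1, a mitochondrial sterol side-chain hydroxylase, and Cyp7b1, an oxysterol hydroxylase, while Akr1d1 reduces the sterol ring in both. Slc27a5 joins the acids to coenzyme A and Baat then links them to taurine or glycine. Slc10a1 (sodium-dependent) and Slco1b2 (sodium-independent) take bile acids up from the blood, and Abcb11, the bile salt export pump, secretes them into bile. Bile acids bind the nuclear receptor FXR (Nr1h4), which induces Abcb11 and, through SHP (Nr0b2), represses Cyp7a1 and Cyp8b1. The mRNA of Cyp7a1 is known for a daily rhythm in rodent liver.

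Promoter windows of 300 bases (250 before to 50 after the transcript start, RefSeq, GRCm38.p6) were found for 6 of the 10 genes: Cyp27a1, Abcb11, Akr1d1, Slco1b2, Cyp8b1 and Slc10a1. Those of the 4 genes that also passed the liver test below are shown, 5′ to 3′ on the gene's strand, with capitals marking matches to the motifs searched. They lie at chr9:121916256-121916555 (minus strand, Cyp8b1), chr1:74713285-74713584 (plus strand, Cyp27a1), chr2:69342567-69342866 (minus strand, Abcb11) and chr6:141629268-141629567 (plus strand, Slco1b2).
Cyp8b1: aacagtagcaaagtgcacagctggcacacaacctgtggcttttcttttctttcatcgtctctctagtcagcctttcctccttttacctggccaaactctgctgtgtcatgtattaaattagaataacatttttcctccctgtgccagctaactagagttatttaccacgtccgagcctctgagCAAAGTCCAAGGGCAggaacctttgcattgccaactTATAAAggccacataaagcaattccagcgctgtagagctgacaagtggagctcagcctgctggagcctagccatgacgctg
Cyp27a1: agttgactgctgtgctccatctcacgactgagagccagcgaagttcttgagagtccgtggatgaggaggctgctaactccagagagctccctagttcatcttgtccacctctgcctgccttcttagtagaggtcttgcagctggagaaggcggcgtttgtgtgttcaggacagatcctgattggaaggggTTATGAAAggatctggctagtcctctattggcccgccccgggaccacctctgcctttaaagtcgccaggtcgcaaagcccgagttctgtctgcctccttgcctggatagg
Abcb11: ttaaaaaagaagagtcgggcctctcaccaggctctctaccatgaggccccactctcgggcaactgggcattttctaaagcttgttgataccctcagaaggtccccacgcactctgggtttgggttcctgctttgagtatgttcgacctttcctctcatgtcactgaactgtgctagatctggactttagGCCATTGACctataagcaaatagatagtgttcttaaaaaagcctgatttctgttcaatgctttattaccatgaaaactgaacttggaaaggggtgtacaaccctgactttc
Slco1b2: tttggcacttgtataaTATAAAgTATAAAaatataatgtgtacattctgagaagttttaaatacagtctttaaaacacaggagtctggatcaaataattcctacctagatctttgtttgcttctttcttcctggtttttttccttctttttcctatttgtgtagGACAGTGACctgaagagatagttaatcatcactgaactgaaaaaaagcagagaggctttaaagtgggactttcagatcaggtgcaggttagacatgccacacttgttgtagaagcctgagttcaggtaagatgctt

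Both strands were searched for 6 motifs by their letters. In the Cyp8b1 window, CAAAGTCCA, letters bound by HNF4, began at -67 from the transcript start. CAAGGNCA, letters bound by LRH-1 (Nr5a2), began at -60 and shared 2 bases with it, and the TATA box letters TATAAA began at -31. GNCANTGAC, the core of the inverted repeat bound by FXR, began at -61 in the Abcb11 window and at -86 in that of Slco1b2, which also held TATAAA at -234 and -227. TTATGNAA, the D-box bound by the clock output factors Dbp, Hlf and Tef, began at -60 in the Cyp27a1 window. In the windows not shown, the D-box was at -8 for Akr1d1 and at -4 for Slc10a1 (window 2). TATAAA was at -128 for Slc10a1 (window 1). Neither of these genes passed the liver test. The E-box letters CACGTG were in none of the 4 windows. Over 32544 RefSeq promoter windows of the same length, 0.479% held the HNF4 letters, 6.68% those of LRH-1, 13.6% TATAAA, 3.49% the FXR core, 3.39% the D-box and 7.17% the E-box. These matches describe letters, not bound sites.

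Library totals were 47.5 to 55.9 (low) and 68.8 to 86.1 (high) in the liver, and 48.3 to 73.9 and 46.1 to 70.7 in the colorectum, in units of 1e6 estimated counts; the liver depths did not overlap. Levels are counts per 1e6 counts of the library (CPM) or, between genes, TPM (transcripts per 1e6 transcripts), which are per length. Log2 fold changes are high minus low with TMM-scaled libraries. A gene passed the test when edgeR's quasi-likelihood test gave an adjusted p (Benjamini-Hochberg over all genes tested in that tissue) under 0.05. Hepatocyte markers were present in every liver library, with a level summed over 11 genes of 112393 to 119694 CPM (low) and 99005 to 120019 CPM (high), Alb and Apoa1 among them. Among those 11, Fga and Hp passed, both lower in the high group. Pancreatic acinar genes (12 genes, such as Cpa1 and Cela1) summed to 7413 CPM in low liver library 1 and 3150 in high liver library 1, against 30.7 to 52.0 in the other 4 livers, so liver results are also given without these 2 libraries. In the colorectum, kidney genes (16 genes, such as Slc34a1 and Kap) summed to 15050 CPM in low library 4 and acinar genes to 3854 CPM in low library 3, and colorectum results are also given without those 2.

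In the liver, 5 of the 10 genes passed the test between high and low Neu5Gc. Slco1b2, an uptake carrier, rose, and Cyp8b1, Cyp27a1, Slc27a5 and Abcb11 fell. The low and high libraries did not overlap in CPM for those 5 and for Cyp7a1 (2 higher, 4 lower), while 28.1% of all genes tested did not overlap (8.61% higher, 19.5% lower). The test called 1004 of 15522 liver genes (6.47%), 489 higher (3.15%) and 515 lower (3.32%). On log2(TPM + 1) the median of all liver genes lay at -0.17, and limma then called 147 genes higher and 1550 lower, so that the split over all genes depended on the scale; the same 5 genes passed on it with the same signs. The median log2 fold change of the 10 genes was -0.12, against 0.00 over all genes tested. In bulk tissue, fewer cells of a type and less RNA per cell cannot be told apart.

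**Figure D1:**
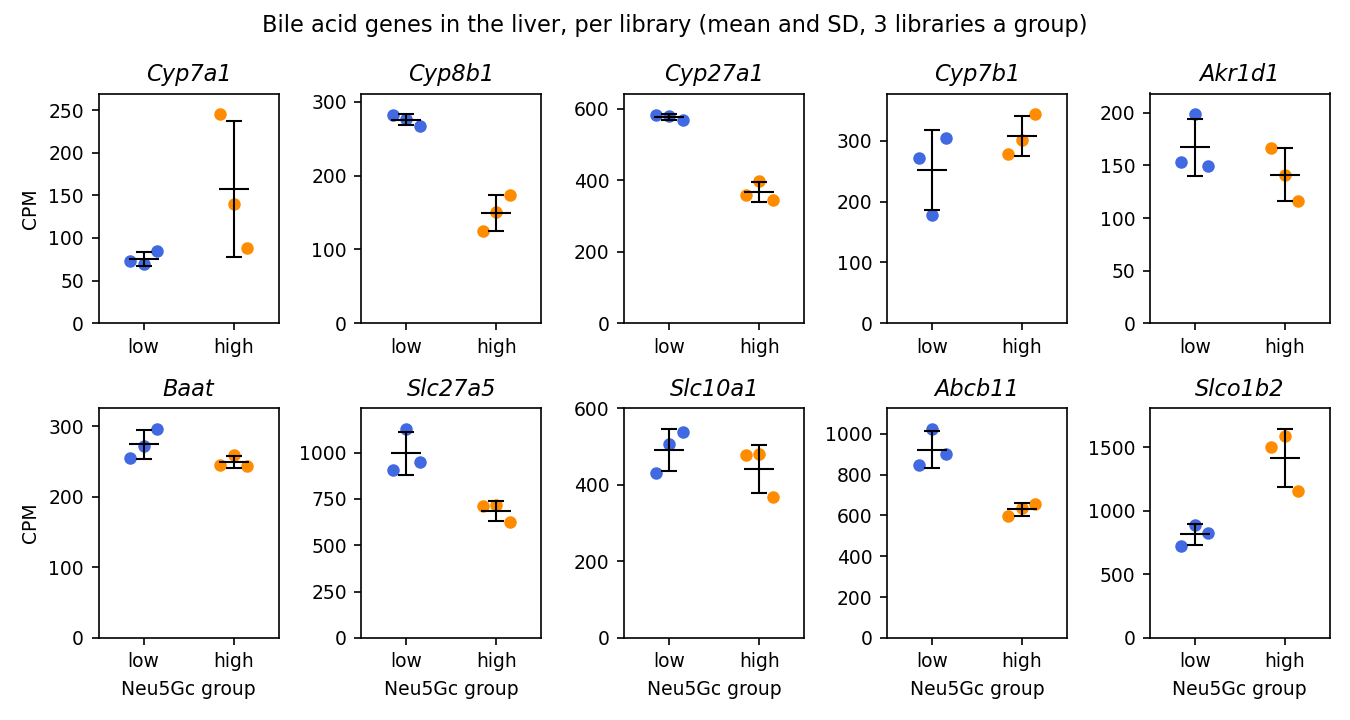
Level of each of the 10 genes in every liver library (points, CPM, linear axes from 0), with the group mean and SD (n = 3 libraries a group) as a bar. Low and high points do not overlap for Cyp7a1, Cyp8b1, Cyp27a1, Slc27a5, Abcb11 and Slco1b2.

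Cyp7a1, which opens the classical pathway, was at 73.4, 69.1 and 85.0 CPM in low livers 1 to 3 and at 244.9, 140.1 and 87.8 CPM in high livers 1 to 3. In CPM every high library lay above every low one. High library 3 was only just above low library 3, and the high group spread widely. On the TPM scale Cyp7a1 overlapped between the groups, at 22.6 TPM for high library 3 against 24.8 TPM for low library 3. Its log2 fold change of 1.122 (SE 0.33) did not pass (75.8 ± 8.26 against 157.6 ± 80.0 CPM, mean ± SD, n = 3 each; adjusted p = 0.109, edgeR). It passed in 1 of the 6 edgeR fits with a library left out, that without high library 3 (1.39, adjusted p = 0.0166). Over those 6 fits its log2 fold change ran from 0.69 to 1.39 and its adjusted p reached 0.268. Of the other settings, DESeq2 called it (adjusted p = 0.0477) and 10 did not.

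Cyp8b1, the enzyme of the cholic acid branch, was at 281.8, 277.1 and 267.2 CPM in the low livers and at 124.6, 150.2 and 173.6 CPM in the high ones. The low libraries lay close together and all high libraries were below them. Cyp8b1 fell, with means of 275.4 ± 7.42 and 149.5 ± 24.5 CPM and a log2 fold change of -0.79 (SE 0.15, adjusted p = 0.015, edgeR, n = 3 each). The call did not hold when low library 1 (adjusted p = 0.0508) or high library 2 (0.0633) was left out.

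Among the high livers, the order of Cyp8b1 was the reverse of that of Cyp7a1. Among low livers 1 to 3 it was not, with Cyp8b1 at 281.8, 277.1 and 267.2 CPM and Cyp7a1 at 73.4, 69.1 and 85.0 CPM. The TPM of Cyp8b1 divided by that of Cyp7a1 was 8.84, 9.24 and 7.24 in the low livers and 1.17, 2.47 and 4.56 in the high livers. This ratio and the other 3 below were chosen after values were seen and are given with no test.

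Cyp27a1, of the alternative pathway, was at 582.0, 579.0 and 568.0 CPM in the low livers and at 358.9, 397.8 and 344.2 CPM in the high ones. The groups lay far apart relative to their spread. It fell, with means of 576.3 ± 7.35 and 367.0 ± 27.7 CPM and a log2 fold change of -0.57 (SE 0.09, adjusted p = 0.00872, edgeR), and the call was kept in each of the 6 fits that left out 1 liver library. Cyp7b1, which follows it in that pathway, was at 271.4, 178.3 and 305.0 CPM in the low and 278.0, 301.1 and 343.6 CPM in the high livers. These groups overlapped, and Cyp7b1 had a log2 fold change of 0.37 (SE 0.21, adjusted p = 0.328, edgeR). The TPM ratio of Cyp7b1 to Cyp27a1 was 0.344, 0.227 and 0.396 in the low and 0.571, 0.558 and 0.736 in the high livers.

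Akr1d1, the ring reductase shared by both pathways, was at 152.9, 198.6 and 149.9 CPM in the low livers and at 166.4, 140.5 and 116.3 CPM in the high livers. The groups overlapped (log2 fold change -0.16, SE 0.14, adjusted p = 0.539, edgeR).

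The 2 conjugation enzymes differed in CPM and in the test. Slc27a5, the coenzyme A ligase, was at 908.6, 1128 and 952.3 CPM in the low livers and at 714.4, 720.0 and 625.7 CPM in the high ones, with no overlap. It fell (log2 fold change -0.45, SE 0.09, adjusted p = 0.0202, edgeR), but passed in only 1 of the 6 fits with a library left out, that without high library 3; in the other 5 its adjusted p ran from 0.0505 to 0.0668. Baat, the amino acid transferase, was at 254.4, 272.5 and 296.1 CPM against 245.5, 258.8 and 243.0 CPM. The groups overlapped (log2 fold change -0.05, SE 0.09, adjusted p = 0.788, edgeR).

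Among the carriers, Slco1b2 was at 724.9, 891.2 and 828.6 CPM in the low livers and at 1502, 1590.1 and 1160.1 CPM in the high livers. All 3 high libraries lay above all 3 low ones. It rose, with means of 814.9 ± 84.0 and 1418 ± 227 CPM and a log2 fold change of 0.88 (SE 0.11, adjusted p = 0.00189, edgeR), and the gene passed in each of the 6 fits with a library left out. Slc10a1, the sodium-dependent uptake carrier, was at 430.4, 505.9 and 536.4 CPM in the low and 476.8, 479.1 and 368.8 CPM in the high livers. Its groups overlapped (log2 fold change -0.07, SE 0.11, adjusted p = 0.761, edgeR). The TPM ratio of Slco1b2 to Slc10a1 was 0.861, 0.900 and 0.789 in the low and 1.61, 1.70 and 1.61 in the high livers.

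Abcb11, the export pump, was at 845.7, 1024 and 899.4 CPM in the low livers and at 595.5, 639.1 and 657.1 CPM in the high livers. All high libraries lay below all low ones. It fell, with means of 923.1 ± 91.6 and 630.6 ± 31.7 CPM and a log2 fold change of -0.46 (SE 0.09, adjusted p = 0.0222, edgeR), but the call was kept in 1 of the 6 fits with a library left out, that without high library 3. In the other 5 its adjusted p ran from 0.0523 to 0.0843. The TPM ratio of Slco1b2 to Abcb11 was 1.41, 1.43 and 1.52 in the low and 4.15, 4.09 and 2.91 in the high livers.

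**Figure D2:**
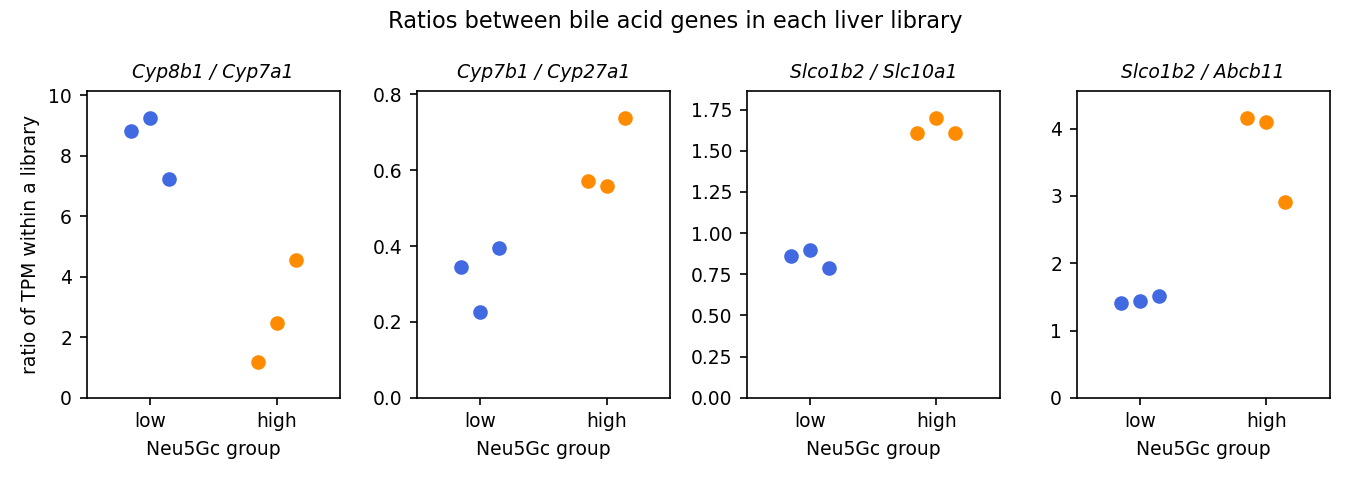
TPM of the first gene divided by TPM of the second within each liver library (points; linear axes from 0; no test). The ratios were chosen after values were seen and add no evidence beyond the levels of the single genes. In all 4 panels the low and high libraries do not overlap. Cyp8b1 to Cyp7a1 lay between 7.24 and 9.24 in the low livers and between 1.17 and 4.56 in the high livers.

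Without low liver library 1 and high liver library 1, which held acinar genes, only Slco1b2 of the 10 genes passed (log2 fold change 0.83, adjusted p = 0.0457, edgeR, 2 libraries a group), while 365 genes passed in all. The 4 genes that had fallen kept their sign, at -0.60 for Cyp8b1 (adjusted p = 0.0669), -0.48 for Cyp27a1 (0.108), -0.48 for Slc27a5 (0.135) and -0.42 for Abcb11 (0.158). Cyp7a1 was at 0.71 (0.173).

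Per length, the low livers ordered the 10 genes by mean TPM as Slc27a5 (605 ± 81.2), Cyp27a1 (461 ± 8.49), Slc10a1 (382 ± 49.6), Slco1b2 (324 ± 40.0), Abcb11 (223 ± 26.3), Baat (184 ± 17.02), Cyp8b1 (183 ± 3.94), Cyp7b1 (148 ± 38.0), Akr1d1 (90.1 ± 16.01) and Cyp7a1 (21.9 ± 2.51). Neighbours overlapped in their ranges from Slc10a1 to Slco1b2 and along the run from Abcb11 to Akr1d1. In the high livers Slco1b2 came first (519 ± 95.3), ahead of Slc27a5 (384 ± 40.0). Their ranges almost touched, with the lowest Slco1b2 value at 409.88 TPM and the highest Slc27a5 value at 409.85 TPM. Then came Slc10a1 (317 ± 53.4), Cyp27a1 (270.1 ± 24.6), Cyp7b1 (167 ± 12.7), Baat (153 ± 7.88) and Abcb11 (139.9 ± 3.42). The lowest were Cyp8b1 (91.3 ± 12.2), Akr1d1 (70.1 ± 14.5) and Cyp7a1 (42.4 ± 22.6), whose ranges ran into each other. Together the 10 genes held 0.240% to 0.279% of all TPM in the low livers and 0.189% to 0.229% in the high livers. In CPM their sums overlapped, with low livers at 4525 to 5124 CPM and high livers at 4120 to 4817 CPM. The separation of the sums therefore depended on the scale. On log2(TPM + 1) the median change of all liver genes was itself -0.17.

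Other genes of the pathway were taken from lists chosen by function. Of 15 tested enzymes of bile acid synthesis and conjugation besides the members, 1 rose and 2 fell in the liver. Akr1c14, a hydroxysteroid dehydrogenase, was at 233.1, 287.9 and 271.6 CPM in the low and 559.8, 570.1 and 422.7 CPM in the high livers and rose (log2 fold change 1.05, SE 0.11, adjusted p = 0.00121, edgeR). Cyp39a1, an oxysterol hydroxylase, fell from between 22.4 and 30.9 CPM to between 14.5 and 15.3 CPM (log2 fold change -0.79, adjusted p = 0.012). Acnat2, an acyltransferase of the Baat family in mice, fell from between 21.2 and 43.6 CPM to between 9.38 and 11.8 CPM (log2 fold change -1.38, adjusted p = 0.0155). Hsd3b7, which acts after Cyp7a1, had a log2 fold change of -0.37 (adjusted p = 0.083), and Cyp2c70, which makes muricholic acids in mice, of -0.34 (0.0657). Neither passed. All high libraries lay below all low ones for both, as they did in CPM for 19.5% of all genes tested in the liver. Leaving out 1 library ended the call of Cyp39a1 (high library 2) and of Acnat2 (high library 1 or 2). Without the 2 acinar-bearing livers Akr1c14 and Acnat2 passed and Cyp39a1 did not (-0.69, adjusted p = 0.0924).

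Of 17 tested regulators, 2 rose and 1 fell. Nr0b2 (SHP), the repressor downstream of FXR, was at 42.8, 45.4 and 51.9 CPM in the low livers and at 23.1, 34.2 and 26.7 CPM in the high ones, without overlap. It fell (log2 fold change -0.65, SE 0.15, adjusted p = 0.0322, edgeR), but 5 of the 6 fits with a library left out did not call it. Cebpa, a hepatocyte transcription factor, rose (233.6 to 285.4 CPM in low livers against 369.3 to 429.0 CPM in high livers; log2 fold change 0.71, adjusted p = 0.00489), and so did Ppara, a fatty acid receptor (54.8 to 69.0 against 71.5 to 110.2 CPM; 0.72, adjusted p = 0.0216). Cebpa passed in each fit with a library left out, and Ppara only without low library 2 or high library 3; Ppara did not pass on log2(TPM + 1). Nr1h4 (FXR) itself was at 101.2, 95.4 and 117.6 CPM in the low and 129.9, 130.1 and 92.7 CPM in the high livers, with overlap (0.25, adjusted p = 0.33). Fgfr4 and Klb, which form the liver receptor for the ileal growth factor that lowers Cyp7a1, had log2 fold changes of 0.02 (adjusted p = 0.933) and 0.35 (0.162). Hnf4a (0.00, adjusted p = 0.984) and Nr5a2 (0.11, 0.794), which activate Cyp7a1 or Cyp8b1, did not pass either. Of Nr0b2, Cebpa and Ppara, only Cebpa passed without the 2 acinar-bearing livers, where Nr0b2 was at -0.53 (adjusted p = 0.133) and Ppara at 0.60 (0.132).

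Of 20 other tested carriers, 4 rose and 0 fell (edgeR; 1 was lower at an unadjusted p under 0.05, and DESeq2 also called 0 lower). Abcg5 and Abcg8, the paired pump that moves cholesterol into bile, were at 48.3 to 54.7 and 57.7 to 67.4 CPM in the low livers and at 70.3 to 91.0 and 81.7 to 98.2 CPM in the high livers. Both rose with no overlap between groups (log2 fold changes 0.65 and 0.57, adjusted p = 0.015 and 0.0191, edgeR). Slco1a1, another organic anion uptake carrier (0.43, adjusted p = 0.0438), and Fabp1, a fatty acid and bile acid binding protein (0.43, 0.0477), also rose, but of the 6 fits with a library left out Slco1a1 passed in 1, that without high library 3 (adjusted p = 0.0295), and Fabp1 in none. None of the 4 passed on log2(TPM + 1), and Abcg5 was not called without low library 3, nor Abcg8 without low library 3 or high library 1. Abcc2 (0.43, adjusted p = 0.334) and Abcc3 (-0.16, 0.585), which export conjugates into bile and blood, and Abcb4 (0.01, 0.975), which moves phospholipid into bile, did not pass. Without the 2 acinar-bearing livers Abcg5 passed (0.63, adjusted p = 0.0482) and Abcg8 (0.57, 0.0744), Slco1a1 (0.45, 0.186) and Fabp1 (0.51, 0.175) did not, with 2 libraries a group. Across the 3 lists and the liver groups, the called shares were 20% of the enzymes, 17.6% of the regulators and 20% of the carriers, against 6.47% of all genes. Marker lists of liver cells had shares from 0% (pericentral) to 50% (stellate or endothelial), so such shares were not particular to the pathway. Without the 2 acinar-bearing livers, 1 of 15 enzymes rose and 1 fell, and 1 of 17 regulators and 1 of 20 carriers rose. Over all genes, 365 of 15798 then passed.

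**Figure D3:**
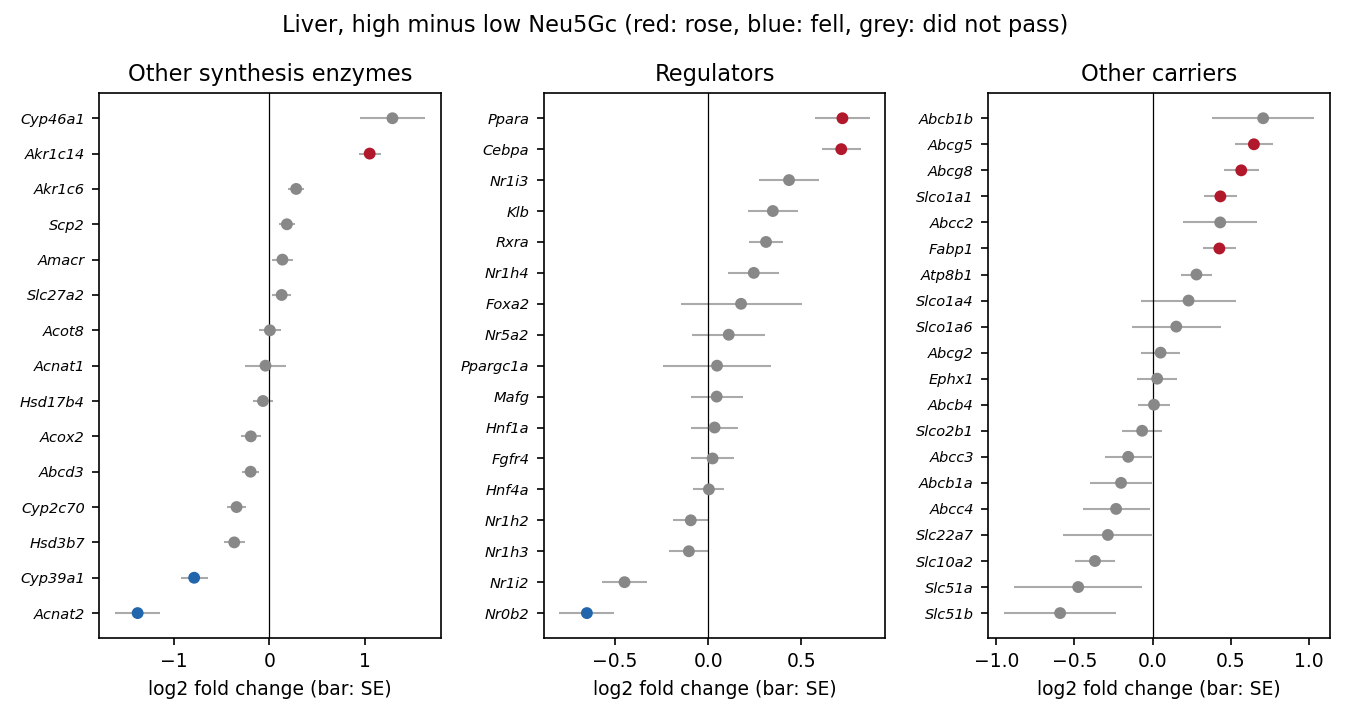
Log2 fold change in the liver (high minus low, bar: SE, n = 3 libraries a group) of the tested genes of the 3 pathway lists besides the members. Red points rose, blue points fell and grey points did not pass; Akr1c14 lies at 1.05 and Acnat2 at -1.38.

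Other gene groups moved with the liver groups, and their part in the values above was not tested. Of 16 clock genes, 8 rose and 4 fell, and their summed level was 253 to 311 CPM in the low and 483 to 739 CPM in the high livers. Dbp had a log2 fold change of 6.34, Bhlhe41 of 4.59 and Npas2 of -4.12. Within the high livers the clock sum had the same order as Cyp7a1, with 739 CPM in library 1, 606 in library 2 and 483 in library 3. Within the low livers the orders differed. The clock sum was 253, 311 and 285 CPM in low libraries 1 to 3, and Cyp7a1 was at 73.4, 69.1 and 85.0 CPM. Skeletal muscle genes (11 of 12 rose) summed to 2.42 to 12.9 CPM in the low and 186 to 248 CPM in the high livers. Of 10 periportal markers 2 fell (Cps1 and Cyp2f2) and their sum was 13328 to 14658 against 9857 to 10966 CPM, while 0 of 10 pericentral markers passed by edgeR (2 at an unadjusted p under 0.05, 1 higher and 1 lower; DESeq2 called 1, lower), with sums of 7052 to 7882 and 7390 to 7872 CPM. Among other liver cell types, 3 of 7 cholangiocyte markers, 2 of 8 Kupffer cell markers and 3 of 8 stellate or endothelial markers fell, and 1 of the last list rose. The kidney list summed to at most 12.0 CPM in any liver. With the liver libraries thinned to 1 depth, the same 5 of the 10 genes passed.

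By the likeness of log2(CPM + 0.5) over the 6 liver libraries, among 9134 genes averaging at least 5 CPM, the genes most like Cyp7a1 were Tent5a (Pearson r = 0.989), Cul5 (0.983), Ddx46 (0.983), Sgk3 (0.981) and Ostm1 (0.980). Of the other members, Slco1b2 was at 0.831, Cyp7b1 at 0.290, Slc10a1 at 0.104, Akr1d1 at -0.02, Baat at -0.43, Slc27a5 at -0.57, Cyp27a1 at -0.69, Abcb11 at -0.81 and Cyp8b1 at -0.90. The 6 libraries share 2 groups and their depths differ by group, so these values describe the pattern and are given with no test.

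In the colorectum the 10 genes were low, apart from Cyp27a1, which is also used outside the liver. Cyp7a1 was at 0.0814, 0.145, 0 and 0.630 CPM in low libraries 1 to 4 and at most at 0.167 CPM in the high libraries. It had 0 counts in low library 3 and high library 2, which allows up to 0.0534 and 0.0530 CPM (3 counts; counting error only). Cyp27a1 was at 27.8, 29.5, 8.11 and 32.5 CPM in low libraries 1 to 4 and, lowest, median and highest, at 20.9, 30.3 and 34.5 CPM in the 6 high libraries. The groups overlapped and the log2 fold change was 0.23 (SE 0.29, adjusted p = 0.602, edgeR). All 10 genes were higher in the low livers than in the low colorectum libraries, by 5.29 (Cyp7b1) to 10.58 (Abcb11) on the log2 scale (edgeR). Without low colorectum libraries 3 and 4 the differences ran from 5.65 (Cyp27a1) to 11.75 (Abcb11), with Cyp7b1 at 8.57. DESeq2 called 8 and gave no p for Slc27a5 and Abcb11. In that comparison 67.1% of 18703 genes passed, 31.1% higher in the liver, so passing it is common.

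Of 9 members tested in the colorectum (Cyp7a1 was too low), only Akr1d1 passed, where 2784 of 17961 genes (15.5%; 7.29% higher and 8.21% lower) were called. Akr1d1 was at 0.227, 0.291, 1.52 and 30.6 CPM in low libraries 1 to 4 and at 0.125, 0.209 and 0.453 CPM (lowest, median, highest) in the high libraries. Only low libraries 3 and 4 lay above the high group. The log2 fold change was -5.10 (SE 1.33, adjusted p = 0.0319, edgeR). Without low library 4 it was -1.55 (adjusted p = 0.132), and without low libraries 3 and 4 it was -0.02 (0.986). The call was also lost without any of high libraries 1, 3, 4, 5 and 6.

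Cyp7b1 behaved in the same way without passing: it was at 2.02, 1.26, 1.56 and 55.5 CPM in low libraries 1 to 4 and at 1.06 to 1.89 CPM in the high libraries. Its log2 fold change was -3.47 (SE 1.05, adjusted p = 0.0514, edgeR) and, without low libraries 3 and 4, -0.17 (0.74). The members other than these and Cyp27a1 reached at most 1.47 CPM in any high library and had their highest value in low library 4: Slc27a5 7.85, Slc10a1 5.84, Slco1b2 5.19, Abcb11 4.25, Baat 3.14, Cyp8b1 1.69 and Cyp7a1 0.630 CPM. Without low libraries 3 and 4, 0 of 9 members passed by edgeR, none at an unadjusted p under 0.05, and their log2 fold changes lay between -0.76 (Slc27a5) and 0.06 (Cyp8b1).

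Hepatocyte markers were also high in low colorectum library 4: the 11 markers summed to 1378 CPM there and to between 69.3 and 158 CPM in the other 9 libraries. Its excess over the median of the other low libraries, as a percentage of the mean level in the low livers, was 0.801% to 1.67% (median 1.09%) for the hepatocyte markers. For 8 members it lay between 0.411% (Abcb11) and 1.01% (Slc10a1). For Cyp7b1 and Akr1d1 it was 21.5% and 18.1%, and the same library held 15050 CPM of kidney genes, against 6.78 to 55.2 CPM in the other 9. The part of these other mRNAs in the values of Cyp7b1 and Akr1d1 was not tested.

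**Figure D4:**
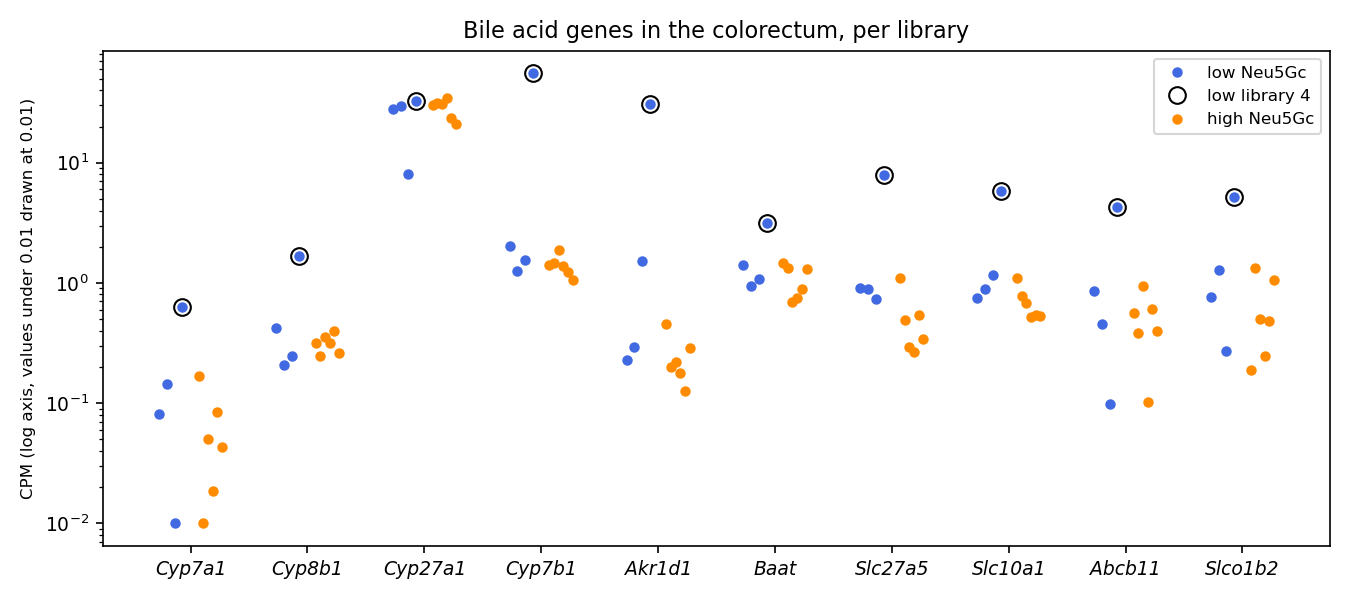
Level of the 10 genes in the 4 low and 6 high colorectum libraries (points, CPM, log axis; values under 0.01 are drawn at 0.01), with low library 4 circled. Low library 4 is the highest library for 9 of the 10 genes, and Cyp27a1 lies between 8.11 and 34.5 CPM.

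Other pathway genes in the colorectum, whose called share is read against 15.5% of all genes, included 1 that rose and 6 that fell of 15 tested enzymes. Of these, Acnat1, an acyltransferase of the Baat family (log2 fold change -0.69), and Acox2, a peroxisomal side-chain oxidase (-3.46), also passed without low libraries 3 and 4 (-0.62 and -2.14), and Acox2 was at -1.77 without low library 4 alone. Abcd3, a peroxisomal carrier (-0.64), Akr1c6 (-2.91) and Acot8, a thioesterase that rose (0.43), did not, at -0.46, -0.72 and 0.33. Akr1c6 was also at -0.72 without low library 4 alone. Of 18 regulators 4 rose and 3 fell. Klb rose from 1.004 to 2.11 CPM in the low to 5.50 to 8.82 CPM in the high libraries (2.26, adjusted p = 0.000559, edgeR), and Foxa2, a liver and gut transcription factor (1.45), and Nr1i3, a xenobiotic receptor (1.61), also rose. Nr1h4 (-0.90) and Ppara (-1.78) fell and Rxra, the partner of these receptors, also fell (-0.40), though Rxra not without low libraries 3 and 4 (-0.32, adjusted p = 0.0907). Nr1i2, a bile acid and xenobiotic receptor, rose (0.57), but not without those libraries (0.40, adjusted p = 0.0559).

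Of 19 other carriers in the colorectum, 2 rose and 7 fell. Slc10a2, the ileal bile acid uptake carrier, was at 68.7, 91.1, 11.3 and 64.7 CPM in low libraries 1 to 4 and at 1.63 to 4.07 CPM in the high libraries (log2 fold change -4.55, adjusted p = 0.00027, edgeR). Slc51a, which forms the basolateral exporter of bile acids with Slc51b, was at 105.7, 175.1, 17.8 and 167.4 CPM against 0.199 to 1.77 CPM (-7.08, adjusted p = 0.000427). In both, every low library lay above every high one. Markers of ileal enterocytes moved with the same groups, 3 of 11 fell (Sis, Enpep and Fabp2) and the sum was 395 to 687 CPM in the low and 208 to 367 CPM in the high libraries; their part was not tested. Abcg2 (-0.94; -0.55 without low library 4) and Slco2b1 (-0.54) fell, and Abcg5 (2.20) and Abcg8 (1.31) rose, of which Abcg8 did not pass without low libraries 3 and 4 (1.27, adjusted p = 0.0974). With 1 library left out, the calls held in 7 of 10 fits for Abcg2 (not without high library 1, 3 or 5), 7 for Abcg8 (not without low library 1 or 2 or high library 1) and 6 for Slco2b1 (not without low library 1 or 2 or high library 1 or 6). They held in 3 for Akr1c6 and in 2 each for Acot8 and Rxra, and in all 10 for the other pathway genes named as rising or falling in the colorectum.

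**Figure D5:**
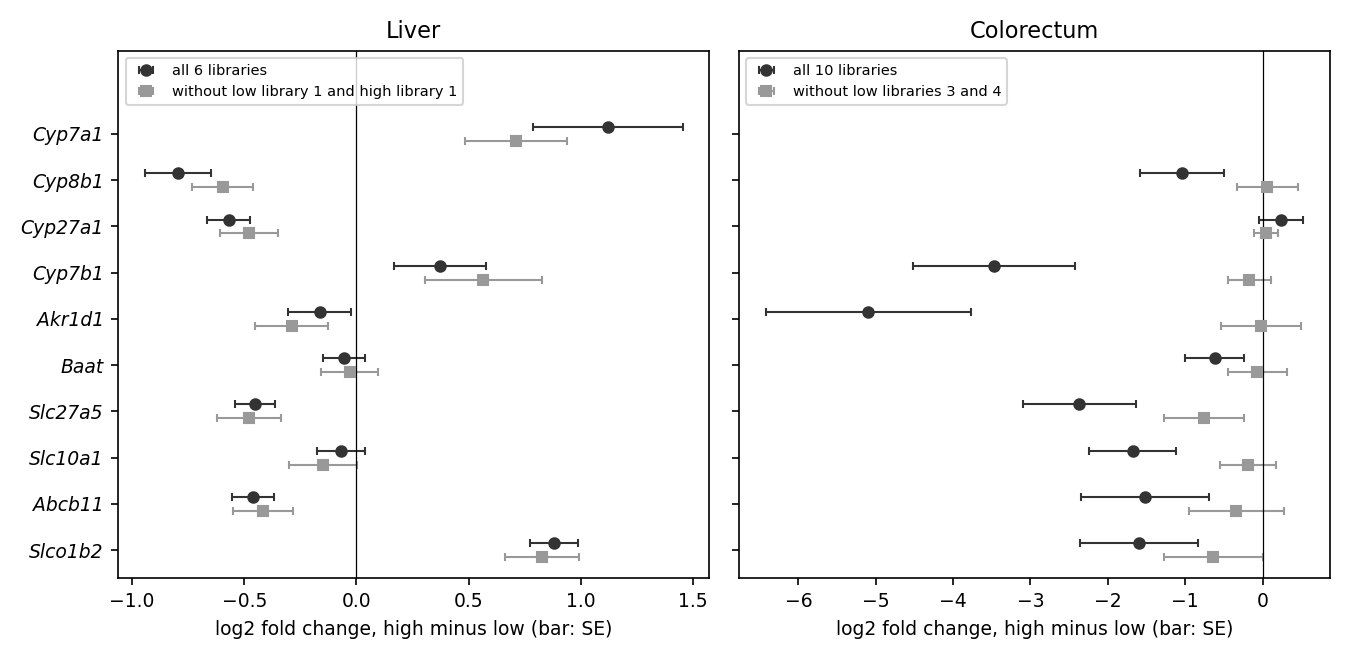
Log2 fold change (high minus low, bar: SE) of the 10 genes in the liver and in the colorectum, with all libraries (dark circles) and without the libraries that held acinar or kidney genes (grey squares). Cyp7a1 is not drawn in the colorectum, where it was not tested; Akr1d1 moves from -5.10 to -0.02 there.

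The difference between the liver and colorectum changes, tested as an interaction over all 16 libraries taken as independent, passed for 0 of the 10 genes by edgeR, where 1504 of 18703 genes (8.04%) passed. At an unadjusted p under 0.05 there were 4 (Akr1d1, Cyp7a1, Cyp7b1 and Slco1b2), with 25.0% of all genes. DESeq2 called 2, Akr1d1 and Cyp7b1, and gave no p for Slc27a5 and Abcb11. The estimates (liver change minus colorectum change) were 4.91 (SE 1.72) for Akr1d1, 3.82 (1.43) for Cyp7b1, 2.89 (1.09) for Cyp7a1, 2.46 (1.05) for Slco1b2 and -0.81 (0.40) for Cyp27a1. Without low colorectum libraries 3 and 4, Akr1d1 was at -0.15 (adjusted p = 0.888), Cyp7b1 at 0.54 (0.328), Cyp7a1 at 1.81 (0.274) and Slco1b2 at 1.502 (0.214). Cyp7a1 passed when low colorectum library 3 was left out (3.28, adjusted p = 0.0416, edgeR), and Akr1d1 when low colorectum library 1 was (5.32, 0.0448). With 1 library left out, Cyp7a1 ranged from 1.31 to 3.45. Too low to be tested in the colorectum alone, Cyp7a1 entered this fit through its liver counts. Its colorectum part rests on 0 estimated counts in low library 3 to 41.8 in low library 4, so that pass is not read as a result. So none of the 10 genes was shown to change differently in the 2 tissues, and the wide errors do not show that they changed alike.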

How the data were processed

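Bulk RNA-seq libraries of colorectum and liver were used as deposited; per the labels' protocols, Trizol was used for total RNA and a NEBNext Ultra kit for the libraries. For each tissue the authors deposited a table of estimated counts and a table of TPM, with 36118 Ensembl gene IDs per table. The submitters' processing notes name GRCm39; an aligner, counter or annotation is not given in the sources used here. Symbols (35825 IDs, 99.2%) were read from GENCODE M21, on GRCm38, and promoters from RefSeq.

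The estimated counts, which are not whole, were rounded and each tissue was fitted alone with edgeR 4.0.16 in R 4.3.3 (TMM, filterByExpr, robust quasi-likelihood test, two-sided; Benjamini-Hochberg at 0.05). The tissue difference was the interaction in 1 fit of all 16 libraries. Tests across genes were tested on simulated data with 200 changed genes. Of 2-fold changes, 54% were recovered in the liver, 35% in the colorectum and 24% for the tissue difference. For 4-fold changes these were 95%, 80% and 56%. Not passing therefore does not show that a gene was unchanged. Alternatives were DESeq2 1.42.0 (size factors, and its Wald test), no count filter, no robust step, limma 3.58.1 on log2(TPM + 1) and log2(TPM + 0.1) for genes averaging at least 1 TPM and with no TPM filter, 1 fit of all libraries, a liver thinned to 1 depth, the replicate block, and leaving out each library or both doubtful colorectum libraries. The fits without low liver library 1 and high liver library 1 were added after seeing the data.

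The members, gene lists and most tests were chosen with earlier results of these data known. The rule for named genes took all 10 members and 11 further pathway genes. From each pathway list it took, per tissue and direction, up to 4 called genes with the smallest p. It also took up to 3 genes of a marker list and the 5 genes most like Cyp7a1. The lowest colorectum values rest on few counts.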

Additional observations from a re-analysis of the deposited data

Results flagged for a closer look

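Several values stood far from the rest of their group, by the gap to the nearest library as a share of the group's range. Chance marks about 1 in 20 separate groups, and 10 values in 26 groups tested were marked here. Most of these marks come from the same library, so the 26 groups are not separate and the rates cannot be compared. In colorectum low library 4 these were Cyp7b1 (55.5 CPM), Akr1d1 (30.6 CPM), Slc27a5 (7.85 CPM), Slc10a1 (5.84 CPM) and Cyp8b1 (1.69 CPM), together with the summed kidney genes (15050 CPM) and hepatocyte genes (1378 CPM). In colorectum low library 3 it was the summed acinar genes (3854 CPM). In colorectum high library 1 they were Slc27a5 (1.09 CPM) and the summed kidney genes (55.2 CPM). The part of the other tissues' mRNA in the member values was not tested.

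The changes with high Neu5Gc differed between tissues for 9 pathway genes outside the members, by the interaction test in edgeR over all 16 libraries (log2, liver change minus colorectum change). They were picked, by passing this test, from the pathway genes named above for either tissue. The test called 0% of 16 enzymes, 36.8% of 19 regulators and 14.3% of 21 carriers, against 8.04% of 18703 genes. For Slc51a and Slc10a2 only colorectum levels are given above, so their liver part is not shown. The difference was 6.59 for Slc51a, 4.18 for Slc10a2, 2.49 for Ppara, 1.14 for Nr1h4 and 0.70 for Rxra, and it was -1.94 for Klb, -1.56 for Abcg5, -1.28 for Foxa2 and -1.03 for Nr1i2. Without colorectum low libraries 3 and 4, Foxa2 (-1.18, adjusted p = 0.0552) and Abcg5 (-1.73, 0.0512) no longer passed and the other 7 did. In the 16 fits with 1 library left out, Slc51a, Slc10a2, Ppara, Klb and Nr1i2 passed in all, Nr1h4 in 9, Rxra in 8, Foxa2 in 8 and Abcg5 in 6.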

How the results depend on the processing

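The liver call was kept in all 6 fits leaving out 1 library for Slco1b2 and Cyp27a1, but not for the other 3 called members. Slco1b2 lost its call in 1 fit of all 16 libraries (0.87, adjusted p = 0.725) and on log2(TPM + 1) with no TPM filter (0.67, 0.0892). Cyp27a1 lost its call in the first of these (-0.58, adjusted p = 0.459) and without low liver library 1 and high liver library 1 (-0.48, 0.108, edgeR). Leaving out 1 library gave 387 to 935 called liver genes with 2 to 6 members, 1592 to 3654 colorectum genes with 0 to 4 members, and 825 to 2177 genes with 0 to 1 member for the tissue difference. Other settings changed the liver count of 1004 to 1742 by the DESeq2 Wald test, 1697 on log2(TPM + 1), 1692 on log2(TPM + 0.1), 630 with the replicate block, 446 in 1 fit of all 16 libraries and 365 without low library 1 and high library 1. Liver members called, 5 at first, were 0 in 1 fit of all 16 libraries, 3 with the replicate block, 3 on log2(TPM + 1) with no TPM filter and 1 without low library 1 and high library 1. The colorectum count of 2784 became 1647 on log2(TPM + 1), 1662 on log2(TPM + 0.1), 1431 with no TPM filter and 477 with the replicate block. Its members called, 1 at first, were 4 in 1 fit of all 16 libraries, 3 with no robust step, and 0 on each of the 3 TPM scales, with no count filter, with the replicate block and without low libraries 3 and 4. DESeq2 called 1 as well, Slc10a1, and gave no p for Akr1d1, Cyp7b1 and Slc27a5. The tissue difference count of 1504 became 2352 by DESeq2 (2 members), 350 with the replicate block and 603 without liver low library 1 and high library 1. The cause of these shifts was not tested.

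Replicate numbers were not taken as pairs: same-numbered libraries correlated in their deviations at 0.47, 0.28 and 0.07 in the liver and at -0.10, -0.07, -0.03 and -0.06 in the colorectum, and a library's own number matched best in 4 of 6 livers and 0 of 8 colorectum libraries.

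Signs turned only for values near 0 or resting on low libraries 3 and 4. In the liver, on log2(TPM + 1), log2(TPM + 0.1) and with no TPM filter, these were Abcb4 (-0.19 in each), Fgfr4 (-0.17, -0.18 and -0.17), Hnf4a (-0.20 in each) and Nr5a2 (-0.070, -0.073 and -0.070), on a scale whose median over all genes was below 0. In 1 fit of all 16 libraries they were Abcb4 (-0.0012) and Hnf4a (-0.0048), and without low library 1 and high library 1 Nr5a2 (-0.11). Leaving out 1 library, the liver ranges were -0.050 to 0.049 for Abcb4, -0.26 to 0.0064 for Abcc3, -0.047 to 0.107 for Fgfr4, -0.020 to 0.034 for Hnf4a, -0.027 to 0.35 for Nr5a2 and -0.13 to 0.022 for Slc10a1. In the colorectum, Abcb4 was 0.057 with the replicate block and 0.35 without low libraries 3 and 4, where Abcc2 was 0.10 and Cyp8b1 0.057, and Fgfr4 was -0.046 on log2(TPM + 1) with and without the TPM filter and -0.049 on log2(TPM + 0.1). Its ranges leaving out 1 library were -1.90 to 0.12 for Abcb11, -0.25 to 0.31 for Abcb4, -2.94 to 0.40 for Abcc2, -0.038 to 0.42 for Cyp27a1, -1.33 to 0.11 for Cyp8b1 and -0.066 to 0.14 for Fgfr4. For the tissue difference, without colorectum low libraries 3 and 4 Abcb11 was -0.13, Akr1d1 -0.15 and Cyp8b1 -0.84, Cyp8b1 was -0.15 with the replicate block, and the ranges leaving out 1 library were -0.57 to 1.44 for Abcb11 and -0.90 to 0.53 for Cyp8b1.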
